A study of Mus musculus with 10 samples.

Results

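The genes described here make, regulate, store and move cholesterol. They are 28 genes, chosen by name from the 40503 genes of the deposited gene table. Of these, 8 act between acetyl-CoA and squalene, 10 between squalene and cholesterol, 4 regulate the pathway, and 6 handle cholesterol in lysosomes, in transport, in storage and in efflux. The samples were gonadal white fat, a visceral depot attached to the reproductive tract, from female C57BL/6 mice aged 12 weeks. Groups of 5 animals carried the label Med19 KO or WT. The labels describe an inducible, adipose-specific deletion of Med19, which encodes a subunit of Mediator, the complex through which activators reach the transcription machinery. The deletion mice received tamoxifen at 100 mg/kg for 5 days and their fat was taken 14 days later. The sources used here do not say whether the WT animals received it, or which promoter drives the recombinase.

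Cells make cholesterol from acetyl-CoA through mevalonate, farnesyl diphosphate and squalene. SREBP-2, encoded by Srebf2, is held in the endoplasmic reticulum with its escort Scap by the Insig proteins while sterol is plentiful, and is released to switch on the synthesis genes when sterol is scarce. LXR receptors respond to sterol in the opposite way and switch on efflux genes such as Abca1 and Abcg1. Adipocytes hold a large pool of free cholesterol around their lipid droplets, and macrophages take up, esterify and export it.

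Levels are RPKM, read counts scaled by gene length and library depth, from the deposited gene table unless the transcript table is named. Gene and transcript levels differed for some genes. The transcripts of Tm7sf2 summed to 16.6 RPKM in the KO-labelled group where its gene value was 2.35 RPKM. Those of Fdps summed to 13.6 RPKM where its gene value was 6.29 RPKM. The origin of these gaps was not tested. The order of levels between genes is that of the gene table. Per library, 14440010 to 20177500 reads assigned to genes were recovered from the RPKM values. The RNA of the targeted gene did not check the labels: Med19 was at 6.79 ± 0.85 RPKM in the libraries labelled KO and 6.70 ± 0.89 RPKM in WT (SD, n = 5 each, exact permutation p = 0.881, 2-sided). The libraries are therefore called KO-labelled, and every direction rests on that label. All 8 adipocyte markers were expressed, and their summed level was 5374 to 5630 RPKM in KO-labelled libraries against 13200 to 19050 RPKM in WT, with 7 of 8 lower by limma. The 10 macrophage markers summed to 4721 to 5948 against 3818 to 5112 RPKM, with none called. Monocyte and neutrophil markers summed to 467 to 827 RPKM against 204 to 381 RPKM, with 2 of 6 called higher, and fibroblast and progenitor markers to 1543 to 1808 against 1257 to 1533 RPKM, with 1 of 7 called higher. In bulk tissue, fewer cells of a type and less RNA per cell cannot be told apart. The part of these marker shifts in the results below was not tested.

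Promoter windows for 22 of the 28 genes were found in the RefSeq table (GRCm38.p6), each running from 250 bases before to 50 after an annotated start. These 22 genes had 28 windows, as some genes had more than 1. Those of Hmgcs1, Ebp and Insig1 are shown. Hmgcs1 was the most abundant mevalonate gene, Ebp the member that passed the test, and Insig1 the tested member whose level varied most among WT libraries. Capitals mark the letters TCACNCCAC of the sterol regulatory element and CCAAT of the NF-Y site, searched on both strands, so that CCAAT on the other strand reads ATTGG.
Hmgcs1 (chr13:119690101-119690400, + strand): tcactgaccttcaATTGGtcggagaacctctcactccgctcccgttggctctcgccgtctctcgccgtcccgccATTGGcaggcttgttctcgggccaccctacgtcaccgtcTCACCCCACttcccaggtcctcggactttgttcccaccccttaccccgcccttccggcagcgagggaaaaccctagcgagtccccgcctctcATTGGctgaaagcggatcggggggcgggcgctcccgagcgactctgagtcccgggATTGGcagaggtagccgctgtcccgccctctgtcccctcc
Ebp (chrX:8193463-8193762, - strand): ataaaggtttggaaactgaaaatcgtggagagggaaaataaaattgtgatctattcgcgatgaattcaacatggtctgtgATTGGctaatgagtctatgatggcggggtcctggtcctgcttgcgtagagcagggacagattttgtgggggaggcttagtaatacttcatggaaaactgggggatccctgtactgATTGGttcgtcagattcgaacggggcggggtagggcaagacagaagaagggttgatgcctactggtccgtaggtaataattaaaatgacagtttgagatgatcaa
Insig1 (chr5:28071162-28071461, + strand): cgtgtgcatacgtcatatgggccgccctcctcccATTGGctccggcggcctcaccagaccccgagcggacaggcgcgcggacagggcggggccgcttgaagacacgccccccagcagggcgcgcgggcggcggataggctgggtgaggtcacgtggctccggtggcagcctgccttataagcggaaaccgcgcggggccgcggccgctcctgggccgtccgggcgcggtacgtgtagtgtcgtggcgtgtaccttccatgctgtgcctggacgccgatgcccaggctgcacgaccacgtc
The sterol element letters were found in 1 of the 28 member windows, that of Hmgcs1, where they lay at positions -137 to -129 relative to the start and overlapped no CCAAT. They occurred in 1.24% of the 32851 windows in the table. CCAAT was in 19 of the 28 member windows, which belong to 19 of the 22 genes, and in 37.4% of all windows. The LXR direct repeat (DR4) was in no member window and in 0.0152% of all. These matches describe letters only.

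Few genes of cholesterol metabolism passed the test. Of the 28 members, 27 were abundant enough to test (at least 0.5 RPKM in at least 5 libraries), and 1 passed the limma test at an adjusted p under 0.05. That was Ebp, which was higher in KO-labelled libraries. Among all 17038 genes tested 5.95% passed, 4.00% higher and 1.95% lower, so a single call among 27 is near the background. The 17 tested synthesis members had a median log2 change of 0.05 and the 6 handling members 0.17, against 0.09 over all genes tested. Above 0 were 10 of the 17 and 5 of the 6, against 68.7% of all genes. Median-ratio scaling lowered these medians to -0.03, 0.08 and 0.01.

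The 95% intervals limit how far each gene could have moved. For 24 of the 27 members the interval lay within a 1.5-fold change in either direction, as it did for 74.0% of all genes tested. The exceptions were Pmvk, Acat2 and Insig1, whose intervals reached ratios of 0.623, 0.601 and 0.658. Of 5 genes of fatty acid synthesis set beside them, chosen with their results known, 4 fell and Acly, the ATP citrate lyase gene, did not pass (log2 change -0.51, adjusted p = 0.128). Fasn, the fatty acid synthase gene, was at 125.9 ± 9.5 RPKM against 623 ± 181 RPKM (log2 change -2.25, SE 0.19, adjusted p = 9.29e-05). Scd1, a fatty acid desaturase gene, had a log2 change of -3.54 (adjusted p = 1.64e-05). Acaca, acetyl-CoA carboxylase, was at 7.38 ± 0.36 against 31.6 ± 8.4 RPKM (log2 change -1.99). Srebf1, which encodes the SREBP-1 forms, had a log2 change of -0.79 (adjusted p = 0.0303), while Srebf2 had -0.01 (95% interval -0.19 to 0.17). The difference between these genes' changes was not tested.

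**Figure D1:**
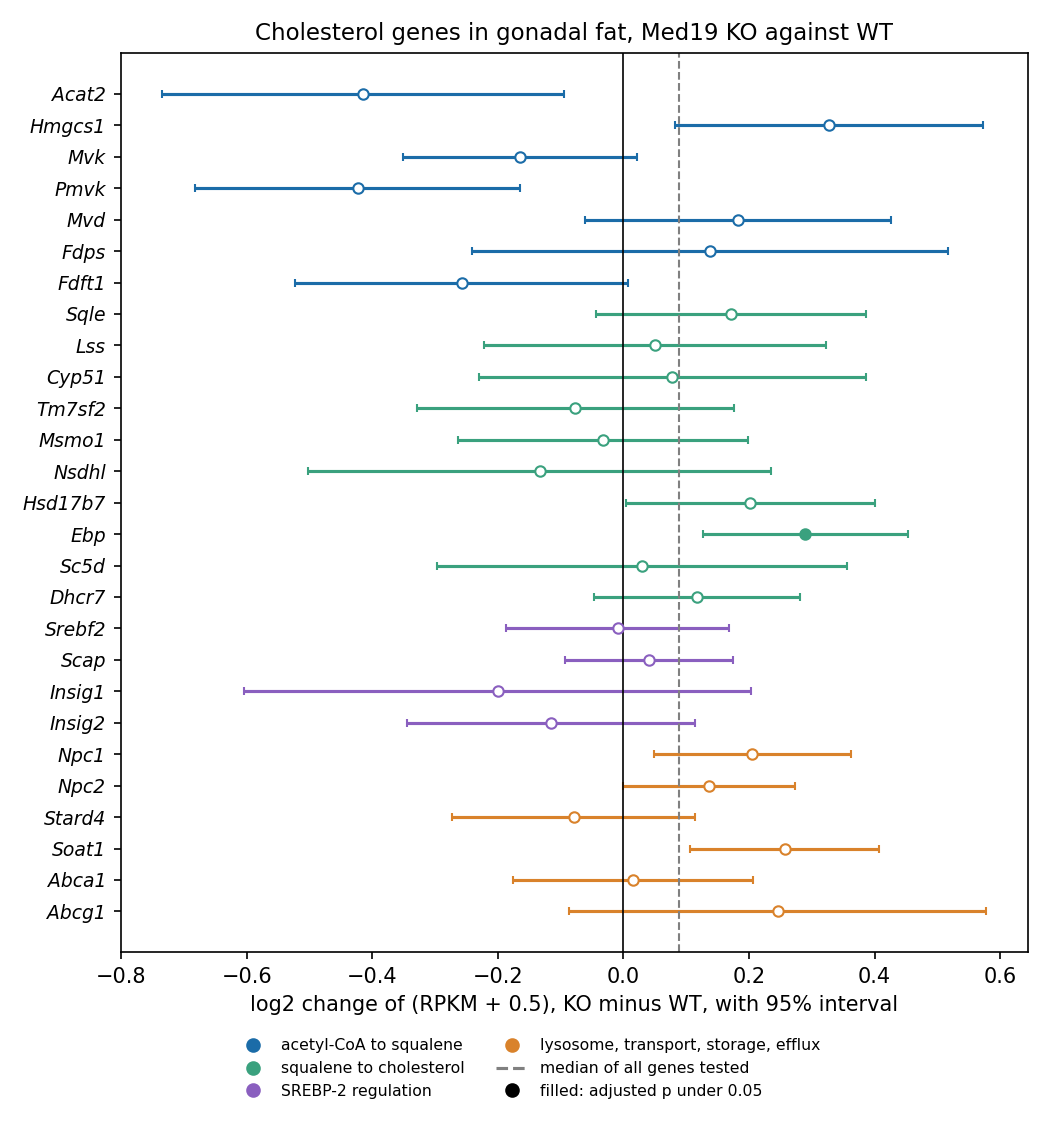
Log2 change of each tested member (KO-labelled minus WT, on log2(RPKM + 0.5)) with its 95% interval, coloured by role, with a filled point where the adjusted p was under 0.05 and a dashed line at the median of all genes tested. Ebp alone is filled, and the 3 intervals that extend past a 1.5-fold change are those of Pmvk, Acat2 and Insig1.

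Within the steps from acetyl-CoA to squalene, genes differed in opposite directions and none passed the test. Hmgcs1, the HMG-CoA synthase that precedes the rate-limiting step, was the most abundant. It was at 34.1, 31.1, 39.9, 29.9 and 34.2 RPKM in KO 1, 4, 7, 8 and 17 and at 24.2, 28.6, 22.4, 32.9 and 26.7 RPKM in WT 2, 9, 19, 86 and 89. WT 86 lay above 2 of the KO-labelled libraries, and the other 4 WT libraries lay below all of them. The log2 change was 0.33 (SE 0.11, adjusted p = 0.102).

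Pmvk, which encodes phosphomevalonate kinase, was at 8.34, 11.4, 11.1, 10.3 and 12.4 RPKM in the KO-labelled libraries and at 13.4, 15.5, 14.3, 17.4 and 12.1 RPKM in WT, in the same order of animals. The groups overlapped through KO 17 and WT 89 only. The log2 change was -0.42 (SE 0.12, adjusted p = 0.0591). It passed with median-ratio scaling (-0.51, adjusted p = 0.0269), with quantile normalization (-0.51, 0.0297) and on recovered reads (-0.43, 0.0447), and over all alternatives adjusted p ran from 0.0269 to 0.153.

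Acat2 encodes the cytosolic thiolase that joins acetyl-CoA units. Its level was 4.66, 6.46, 4.89, 4.18 and 6.20 RPKM in the KO-labelled libraries and 5.81, 8.81, 6.02, 8.37 and 7.02 RPKM in WT. KO 4 and KO 17 lay among the WT values and the other 3 below them all (log2 change -0.42, SE 0.14, adjusted p = 0.110). Fdft1, the squalene synthase gene, had -0.26 (95% interval -0.52 to 0.01) and the mevalonate kinase gene Mvk -0.16 (-0.35 to 0.02). The decarboxylase gene Mvd had 0.18 (-0.06 to 0.43), and the farnesyl diphosphate synthase gene Fdps 0.14 (-0.24 to 0.52).

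Because Hmgcs1 and Pmvk are read from the same libraries, their ratio does not depend on scaling between libraries. The ratio was 4.08, 2.73, 3.58, 2.89 and 2.77 in the KO-labelled libraries and 1.81, 1.85, 1.56, 1.89 and 2.22 in WT. The groups did not overlap. The pair was chosen after its values were seen. Hmgcs1 and Pmvk had the highest and the lowest log2 change of all tested members (0.33 and -0.42). That choice favours a ratio that separates the groups, so no test is given. The share of other gene pairs that separate was not computed.

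Idi1, the isopentenyl diphosphate isomerase gene, was not tested, since it reached 0.5 RPKM in 1 library. Its gene-level values were 0.282 to 0.465 RPKM in the KO-labelled libraries and 0.282 to 0.608 RPKM in WT, from 16 to 34 reads per library. The deposited transcript table gave another level for the same gene. There the protein-coding transcript ENSMUST00000169314 was at 6.67 ± 0.56 RPKM in KO-labelled libraries and 6.66 ± 1.32 RPKM in WT (log2 change 0.02, 95% interval -0.29 to 0.33). The origin of this gap was not tested.

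Gene-level counts of some members may be affected, in either direction, by reads that also overlap neighbours. For neighbours on the opposite strand this depends on the strand setting of the counting, which no source used here gives. In GENCODE M21, 26.7% of the exon bases of Fdps overlap the gene model Gm43738 on the same strand, and 12.1% of those of Tm7sf2 overlap Vps51. On the opposite strand, Ctsb covers 18.3% of Fdft1, an antisense gene covers 12.1% of Hmgcs1, and the gene model 5830462I19Rik covers 13.2% of Scap. In the transcript table Fdps, Fdft1, Hmgcs1 and Scap had a single tested transcript each. The log2 changes were 0.16 for Fdps (95% interval -0.18 to 0.50) and -0.20 for Fdft1 (-0.45 to 0.06). They were 0.22 for Hmgcs1 (-0.02 to 0.47) and 0.01 for Scap (-0.17 to 0.19). Each of these had the sign of its gene-level value. The tested transcripts of Tm7sf2 had log2 changes of both signs.

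Among the steps from squalene to cholesterol, Ebp rose. It encodes the sterol isomerase that moves a ring double bond late in the pathway. Ebp was at 21.9, 21.7, 19.2, 18.0 and 17.9 RPKM in KO 1, 4, 7, 8 and 17 and at 15.7, 16.5, 16.6, 16.6 and 14.6 RPKM in WT 2, 9, 19, 86 and 89. Each KO-labelled library lay above each WT library, as for 6.96% of all genes tested. The log2 change was 0.29 (SE 0.07, adjusted p = 0.0467, 95% interval of the ratio 1.09 to 1.37). The call was marginal: it was lost without any of the 10 libraries (log2 change 0.25 to 0.32, adjusted p = 0.0533 to 0.106) and with median-ratio scaling (0.20, adjusted p = 0.214), and over all alternatives the adjusted p ran from 0.0415 to 0.214. The 4 tested Ebp transcripts had log2 changes of both signs and none passed. The protein-coding ENSMUST00000033509 was at 6.32 ± 3.92 against 1.21 ± 1.17 RPKM (adjusted p = 0.362).

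Sc5d, the sterol C5-desaturase gene and the most abundant of this stretch in the gene table, had the same mean in both groups and a different spread. It was at 25.8, 28.2, 25.5, 25.1 and 29.5 RPKM in the KO-labelled libraries and at 25.1, 31.1, 17.6, 33.1 and 27.3 RPKM in WT. The WT values enclosed the KO-labelled ones (26.8 ± 1.9 against 26.8 ± 6.1 RPKM, log2 change 0.03, SE 0.15, adjusted p = 0.931). In the transcript table the sums in the KO-labelled group were 30.9 RPKM for Sc5d, 54.1 for Ebp and 33.8 for Dhcr7.

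The other 8 genes of this stretch had log2 changes between -0.13 and 0.20, and none passed. Hsd17b7, which encodes a sterol ketoreductase, was at 1.91 ± 0.10 against 1.604 ± 0.220 RPKM (log2 change 0.20, adjusted p = 0.196). Sqle, the squalene epoxidase gene, had 0.17 (95% interval -0.04 to 0.39) and Dhcr7, which encodes the last reductase of one branch, 0.12 (-0.05 to 0.28). Cyp51, the lanosterol demethylase gene, had 0.08 (-0.23 to 0.39) and the lanosterol synthase gene Lss 0.05 (-0.22 to 0.32). For the demethylation genes Msmo1 and Nsdhl the changes were -0.03 (-0.26 to 0.20) and -0.13 (-0.50 to 0.23). Tm7sf2, a sterol C14-reductase gene, had -0.08 (-0.33 to 0.18).

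Of 81 transcripts tested from the members, none passed, against 0.544% of 44475 transcripts. At an unadjusted p under 0.05 the transcript with the smallest p was a nonsense-mediated decay transcript of Tm7sf2, ENSMUST00000161090, named after its values were seen. It was at 0.465 ± 0.536 RPKM in KO-labelled libraries and 2.39 ± 0.70 RPKM in WT (log2 change -1.73, adjusted p = 0.103). Without KO 4 its adjusted p was 0.0498.

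The regulators of SREBP-2 did not pass the test either. Srebf2 was at 21.4 ± 1.7 against 21.5 ± 2.2 RPKM, and its escort gene Scap at 12.8 ± 0.9 against 12.4 ± 0.6 RPKM (log2 change 0.04, 95% interval -0.09 to 0.17). Insig1, itself a target of SREBP-2, was at 20.4, 24.0, 22.8, 20.5 and 21.6 RPKM in the KO-labelled libraries. In WT it was at 21.5, 31.2, 16.3, 36.2 and 25.2 RPKM, so that WT 19 lay below and WT 9, 86 and 89 above all KO-labelled libraries. The coefficient of variation was 7.09% in the KO-labelled group and 30.1% in WT, and the log2 change was -0.20 (SE 0.18, adjusted p = 0.544). It was -0.35 without WT 19, -0.12 without WT 9, -0.07 without WT 86 and -0.03 in animals numbered under 20.

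Insig2, the less sterol-responsive Insig gene, was at 9.04, 10.3, 7.78, 8.68 and 10.02 RPKM against 7.83, 10.7, 10.2, 10.02 and 11.2 RPKM in WT. The groups overlapped over most of their range (log2 change -0.12, SE 0.10, adjusted p = 0.537). A larger coefficient of variation in WT was not general among the members: it was seen in 14 of 27, against 48.7% of all genes tested.

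**Figure D2:**
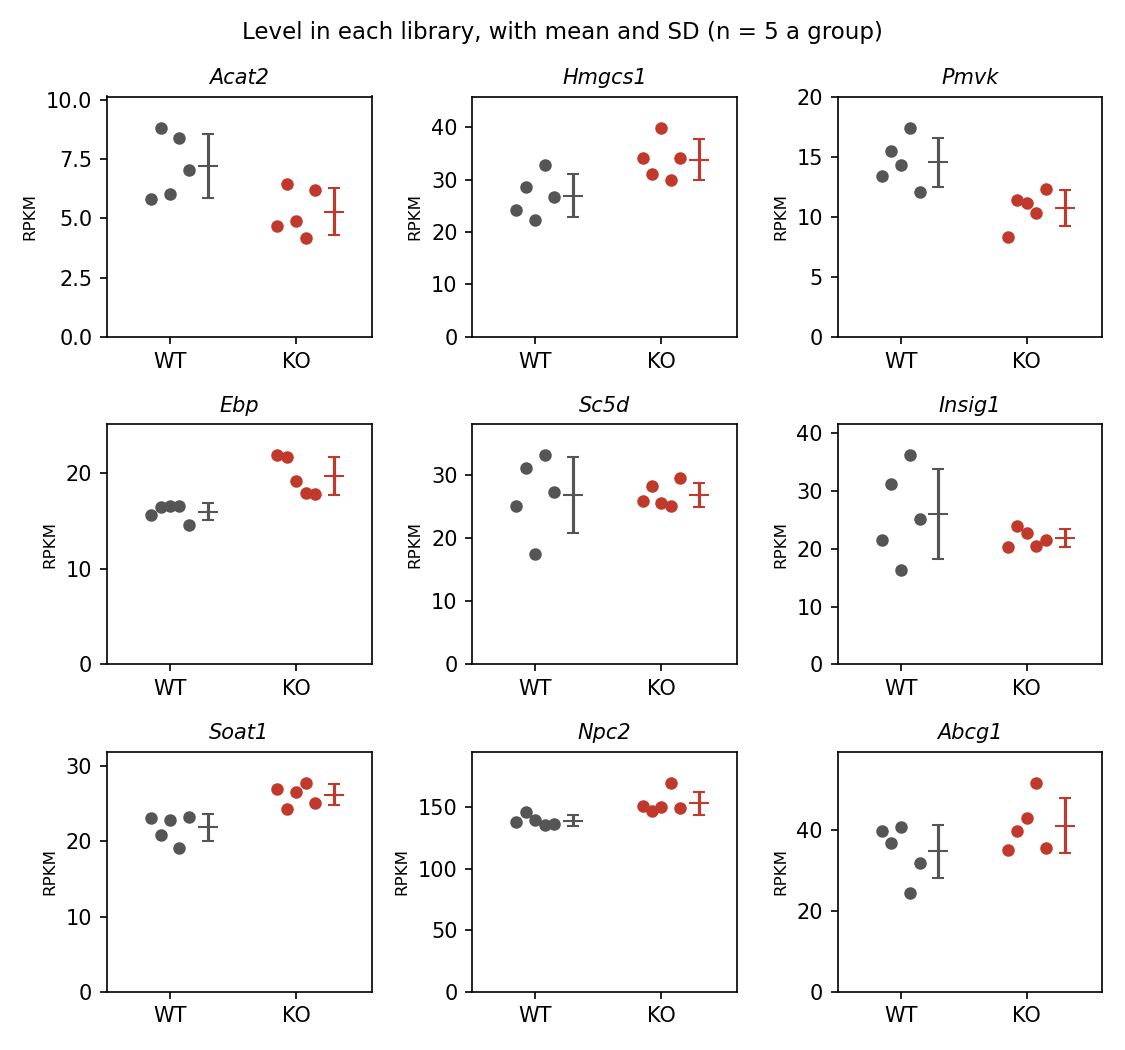
RPKM of 9 members in each of 5 WT and 5 KO-labelled libraries (points), with the group mean and SD beside them and each axis starting at 0. Ebp, Soat1 and Npc2 do not overlap between the groups, and Insig1 and Sc5d spread more widely in WT than in the KO-labelled group.

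None of the genes of cholesterol storage and lysosomal exit passed the test. Soat1, Npc1 and Npc2 had log2 changes of 0.26, 0.21 and 0.14, against a median of 0.09 over all genes tested, and of 0.17, 0.11 and 0.04 with median-ratio scaling, where that median was 0.01. Summed monocyte and neutrophil markers, and summed fibroblast and progenitor markers, were above all WT libraries in every KO-labelled library. Summed macrophage markers overlapped between the groups (4721 to 5948 RPKM in KO-labelled libraries against 3818 to 5112 RPKM in WT). The part of these markers in the values of Soat1, Npc1 and Npc2 was not tested. Soat1, which encodes the enzyme that esterifies cholesterol for storage, was at 26.99, 24.3, 26.5, 27.8 and 25.2 RPKM in KO 1, 4, 7, 8 and 17. In WT 2, 9, 19, 86 and 89 it was at 23.2, 20.8, 22.9, 19.2 and 23.2 RPKM. All KO-labelled values lay above all WT values (log2 change 0.26, SE 0.07, adjusted p = 0.0522). It passed with a filter of 1 RPKM (adjusted p = 0.0469), with array weights (0.0406), on recovered reads (0.0417) and without KO 4 (0.0482), and over all alternatives the adjusted p ran from 0.0406 to 0.307.

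Npc2, the soluble lysosomal cholesterol carrier and the most abundant member, was at 151, 147, 150, 170 and 150 RPKM in the KO-labelled libraries. In WT it was at 138, 146, 140, 136 and 137 RPKM. The groups did not overlap, though WT 9 and KO 4 were close (log2 change 0.14, SE 0.06, adjusted p = 0.203). Npc1, its membrane partner, was at 17.6 ± 0.8 against 15.2 ± 1.5 RPKM (log2 change 0.21, SE 0.07, adjusted p = 0.107). In all, 3 of the 27 members had groups that did not overlap, each higher in the KO-labelled group, against 9.11% of all genes in either direction.

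The efflux transporter genes did not pass the test. Abcg1 was at 35.1, 39.7, 43.1, 51.7 and 35.6 RPKM in the KO-labelled libraries and 39.7, 36.7, 40.7, 24.6 and 32.0 RPKM in WT. KO 8 was the highest and WT 86 the lowest, with the rest intermixed (log2 change 0.25, SE 0.15, adjusted p = 0.346). The change was 0.13 without WT 86, 0.16 without KO 8 and 0.06 in animals numbered under 20. Abca1 was at 133 ± 6 against 133 ± 16 RPKM (log2 change 0.01, 95% interval -0.18 to 0.21). Stard4, which encodes a cytosolic sterol carrier, was at 4.39 ± 0.52 against 4.65 ± 0.39 RPKM (log2 change -0.08, 95% interval -0.27 to 0.11).

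A list of 35 other genes of the pathway, chosen with earlier results of these data known, was read in the same fit. Of these, 33 were tested. A single gene passed, Lpcat3, an LXR-responsive phospholipid acyltransferase gene, at 34.4 ± 4.2 against 26.5 ± 1.2 RPKM (log2 change 0.36, SE 0.08, adjusted p = 0.0307). Its call ended with median-ratio scaling (0.27, adjusted p = 0.183), with quantile normalization (0.26, 0.150), with no filter and in animals numbered under 20. It also ended without KO 1, KO 8, WT 9, WT 19, WT 86 or WT 89 (0.34 to 0.38). Without WT 9 or WT 19, 1 gene of the list was still called higher. No gene of the list passed as lower. Among all genes tested 4.00% passed as higher and 1.95% as lower, so a single call among 33 is near the background. Of the 33, 28 had a log2 change above 0, against 68.7% of all genes. Their median was 0.12, against 0.09 over all genes. By part of the pathway, 0 of 8 passed for SREBP cleavage and sterol-regulated degradation, 0 of 7 for uptake and lysosomal release, 0 of 7 for sterol transport and 0 of 3 for oxysterol enzymes. In limma at an unadjusted p under 0.05, 12 of the 33 were higher and 0 lower, against 19.9% and 4.82% of all genes. Of the 27 members, 5 were higher and 2 lower on that measure, against 24.7% of all genes in either direction.

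About the means of their groups, the synthesis genes varied together over the pooled libraries of both groups. Each library was expressed as its log2 deviation from the mean of its own group, so that the difference between the groups did not enter. KO 4 was the highest of its group in 10 of 17 synthesis members, and KO 8 the lowest in 10. WT 86 was the highest in 10 and the lowest in 1, and WT 19 was the lowest in 7 and the highest in 3. The same counts over all genes were not made. The mean deviation of the 17 genes was 0.17 in KO 4, -0.17 in KO 8, 0.18 in WT 86 and -0.15 in WT 19, and it lay between -0.10 and 0.10 in the other 6 libraries.

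Of the 136 pairs of synthesis members, 116 had a correlation above 0 over the 10 libraries, with a median r of 0.447. For the same 17 genes paired with every gene tested, 51% were above 0 and the median was 0.010. Insig1 followed the synthesis genes, with a median r of 0.636 and 15 of 17 above 0. Srebf2 did not show this (median r -0.116, 7 of 17 above 0). Without KO 4, KO 8, WT 19 and WT 86 together, 94 of the 136 pairs were above 0. All these correlations share the same libraries and pool the deviations of both groups. None was computed in a single group. They are given as a description, and the pattern was noticed in the data.

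The handling genes other than Stard4 lay on the opposite side. Npc1 had a correlation above 0 with 3 of 17 synthesis members (median r -0.477) and Npc2 with 1 (-0.312). Stard4 had one above 0 with 14 (0.249). Of all genes tested, 44.8%, 60.9% and 63.3% had one above 0 with Npc1, Npc2 and Stard4. Soat1 had a correlation below 0 with 16 of 17 synthesis members (median r -0.681), Abcg1 with 16 (-0.579) and Abca1 with 14 (-0.354), where 41.8%, 56.5% and 51.1% of all genes tested had one above 0. Abcg1 was at 24.6 RPKM in WT 86, where the synthesis genes were high, and at 51.7 RPKM in KO 8, where they were low. Abca1 was at 114 RPKM in WT 86 and 155 RPKM in WT 19. Without KO 4, KO 8, WT 19 and WT 86 together the counts below 0 were 14 for Soat1, 10 for Abcg1 and 3 for Abca1, so that the patterns of Abca1 and Abcg1 rest on those libraries.

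Macrophage markers summed to 3818 RPKM in WT 86 and 5112 RPKM in WT 19, the lowest and highest WT values, and to 5228 RPKM in KO 8 and 5948 RPKM in KO 4. Adipocyte markers summed to 17380 RPKM in WT 86, 14370 RPKM in WT 19, 5415 RPKM in KO 8 and 5493 RPKM in KO 4. The part of these marker levels in the pattern was not tested.

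**Figure D3:**
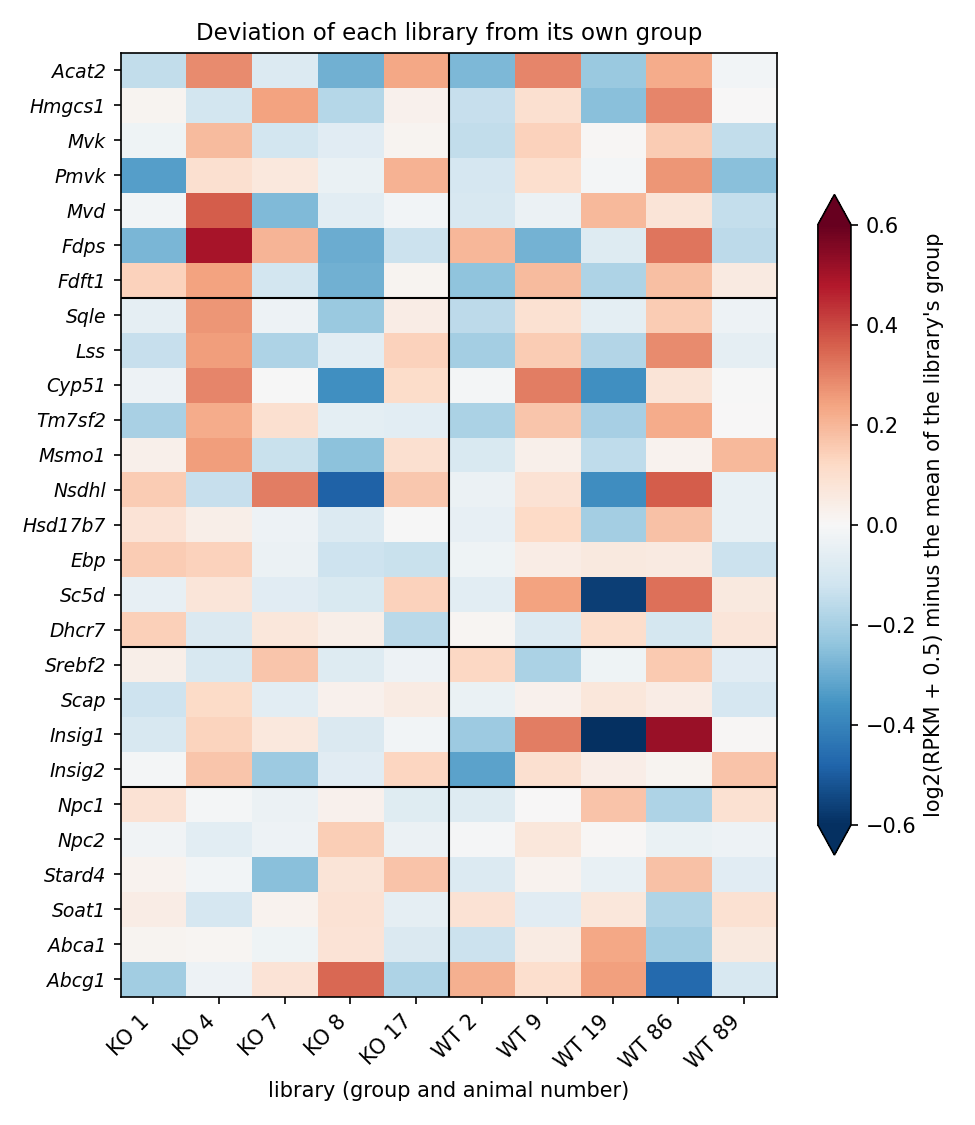
Deviation of log2(RPKM + 0.5) from the mean of the library's own group, for 27 members (rows, in the order of the pathway, with lines between roles) and 10 libraries (columns). KO 4 and WT 86 are mostly red, and KO 8 and WT 19 mostly blue, over the synthesis rows, and Abcg1 has the reverse colour in KO 8, WT 19 and WT 86.

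Insig1 is shown against 4 members, chosen after the pattern was seen, so its correlations are a description over the 10 libraries with no test. With Sc5d, Pearson r was 0.936 and Spearman rho 0.770, and r was 0.759 without WT 19 and WT 86, the libraries with the most distant Insig1 values. With Acat2, r was 0.729 and rho 0.770, and r was 0.806 without those libraries. With Abca1, r was -0.646 and rho -0.370, and r turned to 0.433 without them. With Abcg1, r was -0.618 and rho -0.455, and r was -0.109 without them, so that both negative relations rest on WT 19 and WT 86.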

How the data were processed

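RNA-seq of gonadal fat from 5 KO-labelled and 5 WT mice was analysed. The authors deposited RPKM tables of genes and transcripts. The submitters' processing notes name bcl2fastq, STAR 2.0.4b1, Subread and featureCounts 1.4.52. No source used here gives the genome build or annotation. Repeated identifiers held equal values and were used once. Whole reads were recovered for 99.9% of 25122 genes (tolerance 0.001 reads, proportionally wider for the most abundant genes). Genes with at least 0.5 RPKM in 5 libraries were fitted as log2(RPKM + 0.5) with limma 3.58.1 (trend, robust, 2-sided), which gives all adjusted p-values (Benjamini-Hochberg over 17038 genes). Fold changes on this scale understate those of low genes. The fit was tested on simulated data. Animal numbers are not shared between groups and no batch is given, so nothing was paired. Members, gene lists and tests were chosen with earlier results of these data known. Values per library are given for called members, the most abundant of each role, and the 2 with the largest change where none was called; Abca1 and Idi1 were added after their values were seen. Alternatives were pseudocounts, filters, scalings, eBayes settings, array weights, voom on recovered reads, animals numbered under 20, and leaving out each library.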

Additional observations from a re-analysis of the deposited data

Results flagged for a closer look

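Each of the 28 members and Med19 was examined for a library far from the rest of its group of 5, 58 groups in all, of which chance would pick about 1 in 20. A single group was picked. Npc2 was at 170 RPKM in KO 8, while the other 4 KO-labelled libraries lay between 147 and 151 RPKM, a gap of 0.823 of the group's range. KO 8 was also the highest of its group for Abcg1, Abca1 and Soat1. Without KO 8 the log2 change of Npc2 was 0.10, against 0.14 with it.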

How the results depend on the processing

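Ebp, the single member called higher, makes the count 1. That count was 0 with no filter, both scalings (median-ratio and quantile), plain eBayes, and animals numbered under 20, 2 with a filter of 1 RPKM and on recovered reads, and 0 to 1 without single libraries (1 without KO 4, where it is Soat1). With array weights the count was 1, again Soat1 and not Ebp. Members called lower went from 0 to 1 (Pmvk) with both scalings and on recovered reads. Other pathway genes called higher were 0 with no filter, both scalings and animals under 20, 2 with array weights, and 0 to 1 without single libraries. All genes called higher were 681, and 292 with no filter, 102 with median-ratio scaling, 149 with quantile normalization, 72 in animals under 20, and 188 to 689 without single libraries. Those called lower were 332, with 139 in animals under 20 and 206 to 314 without single libraries. The median change of handling members was 0.0791 with median-ratio scaling and 0.0863 in animals under 20, and that of all genes 0.0388 with no filter, 0.0076 and 0.0244 with the scalings. Signs turned for members near 0: with median-ratio scaling and quantile normalization Lss (-0.0293, -0.0136), Sc5d (-0.0623, -0.0607), Scap (-0.0490, -0.0401) and Abca1 (-0.0781, -0.0436), with median-ratio scaling Cyp51 (-0.0107), and in animals under 20 Msmo1 (0.0396), Srebf2 (0.0216) and Abca1 (-0.0356). Without single libraries these ran from -0.0121 to 0.12 (Lss), -0.11 to 0.11 (Sc5d), -0.0372 to 0.0728 (Abca1), -0.0142 to 0.17 (Cyp51), -0.10 to 0.0281 (Msmo1) and -0.0569 to 0.0310 (Srebf2). The Med19 difference ran from -0.21 to 0.40 RPKM, and member transcripts called from 0 to 1. Without KO 4, KO 8, WT 19 and WT 86, an alternative chosen after seeing the data, the counts below 0 were 10 for Abcg1 and 3 for Abca1. The causes were not tested. No paired analysis was possible because the groups share no animal number.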
